A study of Homo sapiens with 21 samples.

Results

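Glucose enters a cell through the transporter SLC2A1 and is turned into pyruvate and lactate by a chain of cytosolic enzymes, and 10 genes of this route were followed here: SLC2A1, HK2, PFKP, ALDOA, TPI1, GAPDH, PGK1, ENO1, PKM and LDHA. They were chosen by gene symbol as a set of the glucose transporter and 1 gene for each of 9 enzymatic steps, and all 10 were found among the 66738 genes of the count table. All 10 passed the filter on low counts. The cells were of the line RS4;11, which was established from a B-cell precursor leukaemia and carries a KMT2A-AFF1 fusion, kept for 24 h in 1 of 3 media. Complete medium (+Asn) held asparagine. Asparagine-free medium (-Asn) lacked it. The last medium (-Asn+Fe) lacked asparagine and held 10 µM ferric nitrate together with 0.75 µM hinokitiol, a small molecule that ferries iron across membranes. Each medium had 3 RNA-seq libraries and 3 ChIP-seq libraries for H3K4me3, a histone mark found at active promoters. Ferric nitrate and hinokitiol were added together, so their effects cannot be told apart, and 1 cell line was studied.

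Glycolysis splits glucose in a preparatory phase that spends ATP (hexokinase, phosphofructokinase, aldolase, triosephosphate isomerase) and a payoff phase that returns ATP and NADH (GAPDH, phosphoglycerate kinase, enolase, pyruvate kinase). Lactate dehydrogenase then regenerates NAD+ so that the chain can continue without respiration. Most steps have several isozymes encoded by different genes, and leukaemia cells, like other fast-growing cells, typically run the route at a high rate and release lactate. The transporter, hexokinase 2 and several later enzymes are textbook targets of the hypoxia-inducible factors and of MYC.

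The RNA libraries held 29362707 to 42478518 counts. Whether replicates were separate cultures is not stated in the labels, and the p-values rest on the spread between libraries alone, which may be technical. The 11 precursor B cell markers all averaged 1 CPM or more in every medium (CPM is the count scaled to a common library size with TMM factors). Their summed level was 2928 to 3013 CPM in +Asn, 2597 to 2675 CPM in -Asn and 2329 to 2416 CPM in -Asn+Fe. T and NK cell markers summed to at most 0.267 CPM, erythroid markers to at most 0.0886 CPM, stromal and epithelial markers to at most 3.02 CPM and myeloid markers to at most 18.3 CPM. The first -Asn library stood apart from its replicates, with a chi-square per degree of freedom of 37.0 and 40.8 against the other -Asn libraries, where the remaining pairs within a medium gave 3.65 to 15.9. Its part in each comparison is given beside the result.

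The promoter stretches of 4 of the genes are shown because they are free of annotated exons and hold, or lack, the short motifs of hypoxia-inducible and E-box factors. The letters run 5′ to 3′ on the gene's own strand, which is the plus strand for all 4, and come from RefSeq on GRCh38.p14. Capitals mark ACGTG and GCGTG, the core letters of hypoxia response elements, on either strand. Positions are counted from the RefSeq start, with -1 the base before it. RefSeq gave 2 starts for HK2, TPI1 and LDHA, 3 for ALDOA and 4 for PFKP. For these genes, only the start nearest the outer 5′ end of the annotated gene was used, here and below. The PFKP, GAPDH and PGK1 stretches lie within the gene's annotated limits, upstream of this start. The PFKP stretch is chr10:3067750-3067969, the GAPDH stretch chr12:6535142-6535263, the PGK1 stretch chrX:78104028-78104247 and the LDHA stretch chr11:18394340-18394559.
PFKP: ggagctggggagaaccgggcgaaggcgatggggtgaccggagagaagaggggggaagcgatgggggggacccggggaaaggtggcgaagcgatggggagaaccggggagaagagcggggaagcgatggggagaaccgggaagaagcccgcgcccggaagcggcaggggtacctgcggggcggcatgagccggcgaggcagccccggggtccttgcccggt
GAPDH: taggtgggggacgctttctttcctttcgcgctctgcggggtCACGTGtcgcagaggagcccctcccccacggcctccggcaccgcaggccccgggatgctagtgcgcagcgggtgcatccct
PGK1: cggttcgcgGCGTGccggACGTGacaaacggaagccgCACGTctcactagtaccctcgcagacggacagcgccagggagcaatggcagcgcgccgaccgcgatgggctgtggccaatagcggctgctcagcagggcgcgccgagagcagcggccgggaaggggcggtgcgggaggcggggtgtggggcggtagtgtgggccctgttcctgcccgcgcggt
LDHA: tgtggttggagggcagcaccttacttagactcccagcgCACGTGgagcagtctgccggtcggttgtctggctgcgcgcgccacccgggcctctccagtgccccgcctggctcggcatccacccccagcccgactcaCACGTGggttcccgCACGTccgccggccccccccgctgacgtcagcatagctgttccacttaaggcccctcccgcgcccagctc

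LDHA held 5 matches in its printed stretch, PGK1 3 and GAPDH 2, while PFKP held none. The GAPDH pair and 4 of the LDHA matches lie inside CACGTG, the palindromic E-box, which contains ACGTG on both strands and so counts for both motifs. CACGTG began at -81 in GAPDH and at -185 and -87 in LDHA. Over the full windows of 250 bases before to 50 after the start, ACGTG was present in 5 of the 10 genes (HK2, ALDOA, GAPDH, PGK1 and LDHA), against 21.4% of all 35116 RefSeq promoter windows. GCGTG was present in 6 of 10 (SLC2A1, HK2, PGK1, ENO1, PKM and LDHA), against 36.5% of windows, and CACGTG in 2 of 10, against 7.26%. The GC box GGGCGG was found in 8 of 10 and in 45.0% of windows. TATAAA was found in SLC2A1 alone among the 10 genes and in 11.5% of windows. TGATGNAA, the core of the composite element of ATF4 and C/EBP factors, was in none of the 10 and in 3.62% of windows. The median GC content was 70.7% for the 10 windows and 58.7% for all windows. Both strands were searched, and a match describes letters, not binding.

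Without asparagine, RNA of 8 of the 10 genes fell and none rose. PKM, ENO1 and LDHA, at the end of the route, fell by more than 3-fold, PFKP and TPI1 by more than 2-fold, and PGK1, GAPDH and HK2 by less. SLC2A1 and ALDOA did not pass the test. Calls are genes with a Benjamini-Hochberg adjusted p under 0.05 in edgeR's quasi-likelihood test over 17939 genes. Of all genes tested, 61.2% were called in -Asn against +Asn, 30.2% lower and 31% higher. A decrease of at least 2-fold that passed the test was seen in 5 of the 10 genes, against 8.26% of all genes. The median log2 fold change was -1.01 over the 10 genes and 0.04 over all genes. The CPM of the media did not overlap for 8 of the 10, and for 65.5% of all genes. In bulk RNA, fewer cells of a type and less RNA per cell cannot be told apart. Of the 11 precursor B cell markers, 8 fell and 3 rose in the same comparison, and their part in the result was not tested.

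**Figure D1:**
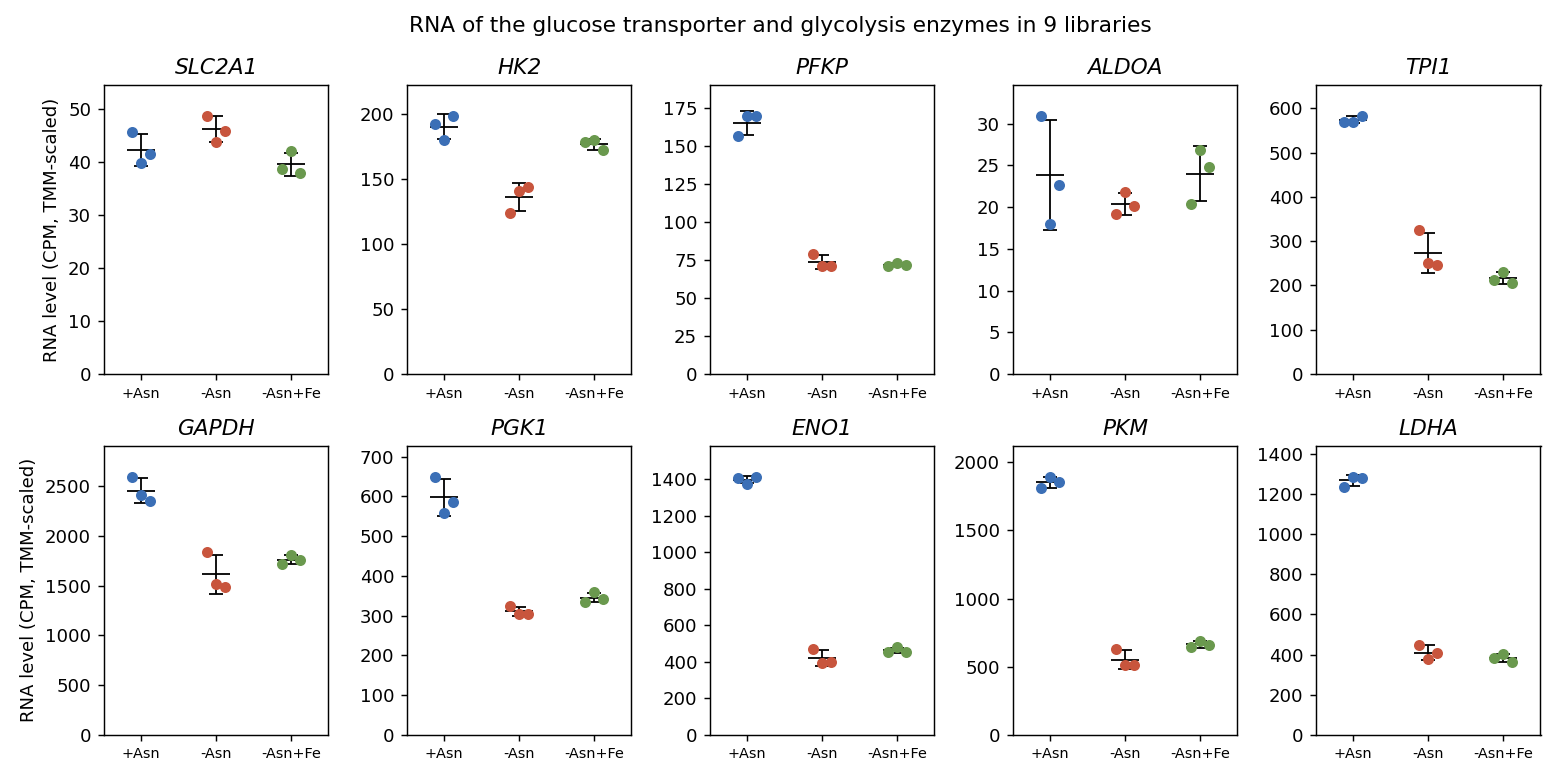
RNA level in CPM (TMM-scaled, linear axis from 0) of the 10 genes in pathway order, 1 panel per gene. Points are the 3 libraries of each medium, bars the mean ± SD. ENO1, PKM and LDHA sit far lower in both asparagine-free media, HK2 is low in -Asn alone, and SLC2A1 and ALDOA overlap between +Asn and -Asn.

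At the entry of the route, SLC2A1 (chr1:42925375-42959176, minus strand), the basal glucose transporter GLUT1, measured 45.7, 39.8 and 41.5 CPM in +Asn, 48.7, 43.8 and 45.9 CPM in -Asn and 38.7, 42.1 and 37.9 CPM in -Asn+Fe. The +Asn and -Asn libraries overlapped, while every -Asn+Fe library lay below every -Asn library. The log2 fold change in -Asn against +Asn was 0.12 (SE 0.08, adjusted p = 0.175). It became a called increase of 0.33 with library totals alone, 0.28 with upper-quartile factors and 0.24 with a stricter low-count filter, settings that also moved the median gene up by 0.21, 0.16 and 0.12. The other glucose transporter with a clear level was SLC2A3, the high-affinity GLUT3, which measured 31.6 ± 1.19 CPM in +Asn and rose to 61.99 ± 2.14 CPM without asparagine (SD, n = 3; log2 fold change 0.97, adjusted p = 4.05e-09). Per kb of exon, the log2 ratio of SLC2A1 to SLC2A3 was 0.78 ± 0.14 in +Asn and -0.06 ± 0.12 in -Asn (SD, n = 3).

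HK2 (chr2:74833981-74893359, plus strand) encodes hexokinase 2, which traps glucose as glucose-6-phosphate. It measured 192, 179.6 and 198 CPM in +Asn, 124, 141 and 144 CPM in -Asn and 178, 179.6 and 172 CPM in -Asn+Fe. The -Asn libraries were the 3 lowest of the 9. HK2 fell 1.40-fold in -Asn (log2 fold change -0.48, SE 0.07, adjusted p = 1.95e-05). HK1, the housekeeping hexokinase, fell too, from 77.1 ± 3.45 to 59.8 ± 5.29 CPM (SD, n = 3; log2 fold change -0.37, adjusted p = 0.000406). The HK1 call ended with library totals alone (-0.16, adjusted p = 0.0585) and against a 1.2-fold change.

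PFKP (chr10:3066333-3137718, plus strand) is the platelet-type subunit of phosphofructokinase, the committing step of glycolysis. Its level was 156, 169 and 169 CPM in +Asn, 78.8, 71.1 and 71.2 CPM in -Asn and 71.1, 72.9 and 71.6 CPM in -Asn+Fe. All 6 asparagine-free libraries lay below every +Asn library. PFKP fell 2.24-fold in -Asn (log2 fold change -1.16, SE 0.07, adjusted p = 2.84e-10). The liver-type subunit PFKL and the muscle-type subunit PFKM fell with it, by log2 fold changes of -1.03 (adjusted p = 1.33e-08) and -1.64 (adjusted p = 5.04e-12). The fold change of PFKM was the larger: per kb of exon, the log2 ratio of PFKP to PFKM was 0.46 ± 0.14 in +Asn and 0.94 ± 0.04 in -Asn (SD, n = 3), with no overlap of libraries.

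ALDOA (chr16:30064164-30070457, plus strand), aldolase A, splits fructose-1,6-bisphosphate. It measured 30.9, 18.02 and 22.6 CPM in +Asn, 19.2, 21.8 and 20.2 CPM in -Asn and 20.4, 26.8 and 24.9 CPM in -Asn+Fe. The 3 media overlapped, and the +Asn libraries spread most. The log2 fold change in -Asn was -0.23 (SE 0.15, adjusted p = 0.22), and -0.42 (adjusted p = 0.0177) without the second +Asn library. ALDOA counts are uncertain, since 43.3% of its exon bases are shared with AC093512.2, a protein-coding gene on the same strand, and 13.6% with AC093512.1 on the opposite strand, and the strand setting of the counting is not given in the sources used here. ALDOC, the brain-type aldolase, fell from 15.3 ± 0.963 to 6.42 ± 0.149 CPM (SD, n = 3; log2 fold change -1.25, adjusted p = 3.47e-08).

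TPI1 (chr12:6867119-6870948, plus strand), triosephosphate isomerase, interconverts the products of aldolase. Its level was 568, 569.6 and 583 CPM in +Asn, 325, 251 and 245 CPM in -Asn and 212, 231 and 205 CPM in -Asn+Fe. The media did not overlap, and the order from high to low was +Asn, -Asn and -Asn+Fe. TPI1 fell 2.10-fold in -Asn (log2 fold change -1.07, SE 0.09, adjusted p = 4.21e-08), and by a log2 fold change of -1.21 without the first -Asn library. Its 4 pseudogene rows held counts equal to at most 2.61% of those of TPI1.

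GAPDH (chr12:6534512-6538374, plus strand), the glyceraldehyde-3-phosphate dehydrogenase that opens the payoff phase and often serves as a reference gene, had the highest level of the 10 per kb of exon. It measured 2595, 2414 and 2351 CPM in +Asn, 1840, 1519 and 1486 CPM in -Asn and 1717, 1811 and 1755 CPM in -Asn+Fe. Every +Asn library lay above all 6 others. GAPDH fell 1.52-fold in -Asn (log2 fold change -0.60, SE 0.09, adjusted p = 1.4e-05). Its 63 pseudogene rows together held at most 0.206% of the GAPDH counts, and 17.6% of its exon bases are shared with the antisense gene AC006064.4, whose counts were 25 to 48 per library.

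PGK1 (chrX:77910739-78129295, plus strand), phosphoglycerate kinase, makes the first ATP of the payoff phase. Its level was 649.6, 557 and 586 CPM in +Asn, 324, 305 and 303 CPM in -Asn and 335, 359 and 343 CPM in -Asn+Fe. The 3 media did not overlap. PGK1 fell 1.92-fold in -Asn (log2 fold change -0.94, SE 0.07, adjusted p = 9.02e-09). The next enzyme, the phosphoglycerate mutase PGAM1, fell from 144 ± 0.662 to 65.1 ± 6.01 CPM (SD, n = 3; log2 fold change -1.14, adjusted p = 7.57e-10).

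ENO1 (chr1:8861000-8879190, minus strand), the ubiquitous enolase, measured 1407, 1375 and 1414 CPM in +Asn, 471, 391 and 397 CPM in -Asn and 454, 480.0 and 456 CPM in -Asn+Fe. All 6 asparagine-free libraries lay far below the +Asn libraries, and -Asn and -Asn+Fe overlapped. ENO1 fell 3.33-fold in -Asn (log2 fold change -1.74, SE 0.08, adjusted p = 1.5e-11). The muscle enolase ENO3 moved the other way, from 11.9 ± 0.249 to 19.3 ± 1.79 CPM (SD, n = 3; log2 fold change 0.70, adjusted p = 2.49e-05). The neuronal enolase ENO2 stayed under 1 CPM on average in every medium.

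PKM (chr15:72199029-72231822, minus strand) encodes the muscle pyruvate kinases, whose alternatively spliced forms share 1 row in a gene count table and were not separated here. It measured 1814, 1895 and 1854 CPM in +Asn, 631, 512 and 512 CPM in -Asn and 642, 687 and 663 CPM in -Asn+Fe. No medium overlapped another, with the gap between -Asn and -Asn+Fe narrow at the first -Asn library. PKM had the largest decrease of the 10 genes in -Asn, 3.36-fold (log2 fold change -1.75, SE 0.09, adjusted p = 3.15e-11).

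LDHA (chr11:18394560-18408425, plus strand), the lactate dehydrogenase subunit that favours lactate formation, measured 1236, 1286 and 1281 CPM in +Asn, 447, 376 and 406 CPM in -Asn and 383, 404 and 364 CPM in -Asn+Fe. Both asparagine-free media lay far below +Asn and overlapped each other. LDHA fell 3.10-fold in -Asn (log2 fold change -1.63, SE 0.08, adjusted p = 2.32e-11). LDHB, the subunit that favours pyruvate formation, fell less, from 55.5 ± 4.54 to 35.1 ± 8.94 CPM (SD, n = 3; log2 fold change -0.66, adjusted p = 0.000527). Per kb of exon the log2 ratio of LDHA to LDHB was 3.50 ± 0.15 in +Asn, 2.55 ± 0.24 in -Asn and 2.71 ± 0.19 in -Asn+Fe (SD, n = 3), so LDHA stayed the major subunit in every medium.

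**Figure D2:**
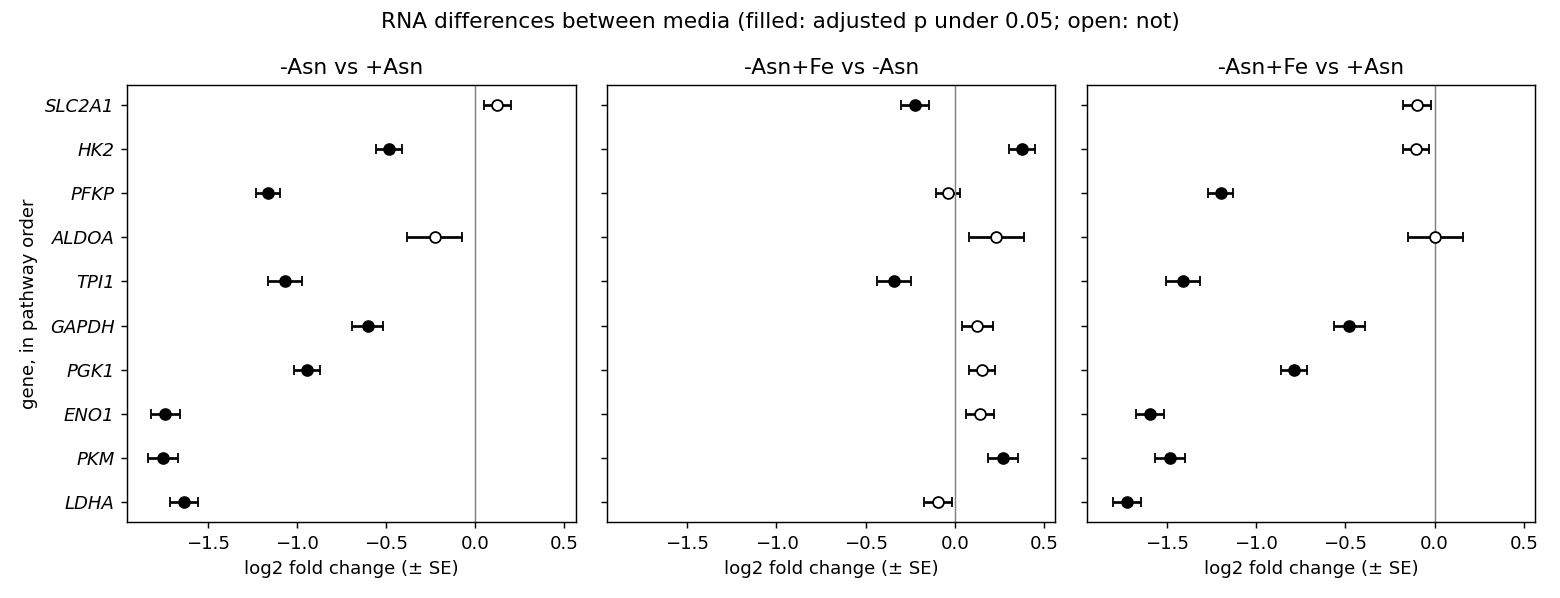
Log2 fold change ± SE of RNA for the 10 genes in pathway order in the 3 comparisons of media, from edgeR. Filled points passed an adjusted p of 0.05 and open points did not. The left and right panels have their largest decreases at ENO1, PKM and LDHA, with no steady order among the genes before them. The middle panel stays within 0.5 of 0.

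Leaving out the first -Asn library kept 8 genes lower and none higher in -Asn against +Asn, with log2 fold changes of -1.86 for PKM, -1.83 for ENO1 and -0.71 for GAPDH. The share of all counts that fell on the 10 genes was 0.770% ± 0.0204 in +Asn, 0.399% ± 0.0343 in -Asn and 0.444% ± 0.0122 in -Asn+Fe (SD, n = 3). The first -Asn library had the highest share of its medium, 0.439% against 0.383% and 0.376%.

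With ferric nitrate and hinokitiol added to asparagine-free medium, called changes of the 10 genes were at most 1.30-fold. HK2 and PKM rose, TPI1 and SLC2A1 fell, and the other 6 did not pass the test, so 4 of 10 were called, against 30.8% of all genes (14% higher and 16.8% lower). HK2 rose 1.30-fold (log2 fold change 0.38, SE 0.07, adjusted p = 0.000859), and all 3 -Asn+Fe libraries lay above all 3 -Asn libraries. PKM rose 1.203-fold (log2 fold change 0.27, SE 0.08, adjusted p = 0.0237). TPI1 fell 1.27-fold (log2 fold change -0.34, SE 0.09, adjusted p = 0.0109), and SLC2A1 fell 1.17-fold (log2 fold change -0.22, SE 0.08, adjusted p = 0.038). The groups did not overlap for these 4 and PGK1, 5 of 10, against 43.2% of all genes. None fell by 2-fold or more with a call, against 1.95% of all genes. The median log2 fold change was 0.13 over the 10 genes and -0.01 over all genes.

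The calls for iron depended on single libraries and settings. Without the first -Asn library, 6 genes were called: HK2 (0.32), PKM (0.39), ENO1 (0.24), GAPDH (0.24) and PGK1 (0.19) higher and TPI1 (-0.19) lower on the log2 scale. Without the third -Asn library 2 genes were called, without the third -Asn+Fe library 1, and none against a 1.2-fold change. HK2 was called in 17 of 18 other settings, TPI1 in 16, PKM in 13 and SLC2A1 in 7.

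Against complete medium, the -Asn+Fe libraries were lower for 7 of the 10 genes and higher for none, where 64.7% of all genes were called (31.9% lower and 32.9% higher). The 7 were LDHA (log2 fold change -1.73), ENO1 (-1.59), PKM (-1.48), TPI1 (-1.41), PFKP (-1.20), PGK1 (-0.79) and GAPDH (-0.48). The largest adjusted p among them was 0.000135, for GAPDH. A called decrease of at least 2-fold was seen in 5 of the 10, against 10.5% of all genes. HK2, the eighth gene that fell in -Asn, was 1.08-fold below complete medium without passing the test (log2 fold change -0.11, SE 0.07, adjusted p = 0.207). Its libraries in these media did not overlap, but only just: the highest in -Asn+Fe was 179.603 CPM and the lowest in +Asn 179.626 CPM. Over the 18 other settings its log2 fold change ran from -0.16 to 0.15, never with a call. SLC2A1 (-0.10, adjusted p = 0.278) and ALDOA (0.00, adjusted p = 0.984) did not pass the test. Groups did not overlap for 8 of 10 genes, and for 70.6% of all genes. The median was -0.99 for the 10 genes and 0.05 for all genes. This comparison shares its +Asn libraries with the first and its -Asn+Fe libraries with the second.

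Levels can be set side by side only per length of exon. This length counts every annotated exon base of a gene once, whichever RNA forms the cells make. Orders and ratios between genes are therefore approximate. In +Asn, GAPDH led at 1024 ± 52.9 CPM per kb, followed by ENO1 at 268 ± 4.02, PKM at 216 ± 4.73, TPI1 at 212 ± 2.92 and LDHA at 209.97 ± 4.51 (SD, n = 3). The libraries of PKM, TPI1 and LDHA overlapped, so their order is not resolved. PGK1 came next at 109.9 ± 8.73, then HK2 at 31.3 ± 1.57 and PFKP at 29.7 ± 1.39, which overlapped, and SLC2A1 at 8.96 ± 0.643 and ALDOA at 6.23 ± 1.71 CPM per kb. In -Asn, TPI1 moved to the second place at 101 ± 16.5 CPM per kb, above ENO1 at 80.4 ± 8.49, LDHA at 67.8 ± 5.91 and PKM at 64.3 ± 8.02, of which LDHA and PKM overlapped. In -Asn+Fe the order below GAPDH was ENO1 at 88.8 ± 2.78, TPI1 at 80.0 ± 4.92, PKM at 77.4 ± 2.62, PGK1 at 63.6 ± 2.31 and LDHA at 63.5 ± 3.33 CPM per kb, where TPI1 overlapped PKM and PGK1 overlapped LDHA. GAPDH stayed first, and HK2, PFKP, SLC2A1 and ALDOA stayed last, in all 3 media. The place of ALDOA is uncertain, since 43.3% of its exon bases are shared with AC093512.2 on the same strand. Reads on these bases may have gone uncounted, so its level may be too low.

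Where 1 step has several isozymes, the ratio per kb of exon between the member and its partner was followed in 7 pairs over the 3 comparisons. Libraries did not overlap in 15 of these 21 comparisons, each with an exact two-sided permutation p of 0.1, the smallest that 3 against 3 libraries allow (0.14 after adjustment), so none could pass 0.05. The share over other pairs of genes was not measured. For single genes, CPM did not overlap for 65.5% of all genes in -Asn against +Asn. The shares were 43.2% in -Asn+Fe against -Asn and 70.6% in -Asn+Fe against +Asn. The 3 comparisons of a pair share libraries. The log2 ratio of HK2 to HK1 was 1.36 ± 0.06 in +Asn, 1.24 ± 0.24 in -Asn and 1.75 ± 0.05 in -Asn+Fe (SD, n = 3), highest with iron. That of SLC2A1 to SLC2A3 was lowest with iron, at -0.59 ± 0.16, so that GLUT3 had the higher level per kb there. The ratio of PFKP to PFKL overlapped in all 3 comparisons, between 0.08 and 0.23 on average. ENO1 exceeded ENO2 by 12.05 ± 0.42 on the log2 scale in +Asn and by 9.83 ± 0.23 in -Asn.

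Across the 9 libraries, 7 genes varied together: the pairwise Pearson r among PFKP, TPI1, GAPDH, PGK1, ENO1, PKM and LDHA was 0.896 to 0.998 on log2 CPM. HK2 correlated with these 7 at 0.414 to 0.723, and SLC2A1 at -0.143 to 0.182. These values describe 9 libraries in 3 media and mostly reflect the steps between media. Among 10073 genes averaging 5 CPM or more, those most like the mean profile of the 10 were ADA (adenosine deaminase, r = 0.998), TCP1 (a chaperonin subunit, r = 0.998), PRDX6 (a peroxiredoxin, r = 0.998), PFKM (r = 0.997) and ZNF668 (r = 0.997). The gene most like HK2 was USP14, a ubiquitin-specific protease (r = 0.981), with log2 fold changes of -0.43 in -Asn against +Asn and 0.36 with iron. The gene most like SLC2A1 was LIN52 (r = 0.949) and the one most like ALDOA was C8orf76 (r = 0.92). For the 7 genes that varied together, the nearest profiles were ANKLE1 (PFKP), TOMM34 (TPI1), ARF1 (GAPDH), KAT2A (PGK1), HNRNPF (ENO1), PLAUR (PKM) and PARP1 (LDHA), with r from 0.996 to 0.999.

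Of 20 other glycolysis genes, 12 passed the low-count filter, and of these 8 fell and 2 rose in -Asn against +Asn, where 30.2% of all genes fell and 31% rose. The median of their log2 fold changes was -0.85, against 0.04 over all genes. GPI, the isomerase between hexokinase and phosphofructokinase, had the largest decrease of the list, from 306 ± 9.39 to 96.2 ± 9.21 CPM (SD, n = 3; log2 fold change -1.67, adjusted p = 1.24e-11). BPGM, which makes 2,3-bisphosphoglycerate, fell by a log2 fold change of -1.39 (adjusted p = 3.36e-08). The genes that rose were ENO3 and the testis-type lactate dehydrogenase LDHC (log2 fold change 0.75, adjusted p = 0.00211), the latter named after its values were seen. With iron added, 1 of the 12 was called, PGAM1, which fell further from 65.1 ± 6.01 to 53.1 ± 1.80 CPM (SD, n = 3; log2 fold change -0.29, adjusted p = 0.0058). Other settings added calls in both directions. Without the first -Asn library, GPI (0.28, adjusted p = 0.000627), PFKM (0.17, adjusted p = 0.0361) and BPGM (0.41, adjusted p = 0.0123) were called higher with iron. GPI was also called higher with RLE or upper-quartile factors, library totals alone, the stricter filter and DESeq2. ENO3, LDHB and LDHC were called lower in other settings. In -Asn+Fe against +Asn, 8 of the 12 were lower and 2 higher, here ENO3 and ENO2, of which ENO2 lost its call without the third +Asn library (adjusted p = 0.0551) or the second -Asn+Fe library (adjusted p = 0.0528). The counts of the lists that follow are read against the same 30.2% lower and 31% higher without asparagine and against 16.8% lower and 14% higher with iron. Of the iron changes named in this and the following lists, those of PGAM1, PFKFB3, FBP1, SLC2A3, PGD, TKT and PDHA1 ended when tested against a 1.2-fold change. The rise of PDHA1 without asparagine ended as well.

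The list of fructose-2,6-bisphosphate control held the PFKFB enzymes and TIGAR, which set this activator of phosphofructokinase, and the fructose-1,6-bisphosphatases, which reverse the phosphofructokinase step. Of 6 genes tested, PFKFB1, PFKFB2, PFKFB3 and TIGAR rose and PFKFB4 fell without asparagine. With iron, PFKFB2, PFKFB3, PFKFB4 and TIGAR rose and FBP1 fell (-0.47, adjusted p = 0.00759). PFKFB1 and FBP1 were named after their values were seen. The PFKFB1 call, at less than 1 CPM, ended in 6 of 18 other settings. The FBP1 call ended without the first -Asn+Fe library (adjusted p = 0.0561) and against a 1.2-fold change (adjusted p = 0.0956). PFKFB3, a kinase-dominant bifunctional enzyme that raises this activator, rose from 74.4 ± 2.41 to 95.6 ± 3.70 CPM (SD, n = 3; log2 fold change 0.36, adjusted p = 0.000119) and to 116 ± 3.19 CPM with iron (0.28, adjusted p = 0.00326). TIGAR, a phosphatase that lowers it, rose as well, from 15.0 ± 0.777 to 21.7 ± 1.79 CPM (0.53, adjusted p = 4.57e-05) and to 33.8 ± 1.115 CPM with iron (0.64, adjusted p = 2.25e-05). PFKFB4 fell from 5.40 ± 0.743 to 2.51 ± 0.145 CPM (-1.10, adjusted p = 7.01e-06) and rose to 4.87 ± 0.516 CPM with iron (0.95, adjusted p = 0.000167). SLC2A3 rose further with iron, to 76.3 ± 4.35 CPM (0.30, adjusted p = 0.00356), where SLC2A4, the insulin-responsive GLUT4 and the only other tested transporter of the list of 7, was not called. SLC2A4, named after its values were seen, fell without asparagine from a mean of 0.537 to 0.0527 CPM (adjusted p = 0.000927).

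Glucose-6-phosphate also feeds the pentose phosphate pathway, which makes NADPH and ribose. Of 6 tested genes, 5 fell and 1 rose without asparagine, and 3 rose and none fell when iron was added. Over all genes, 30.2% fell and 31% rose without asparagine, and 14% rose and 16.8% fell with iron. The median log2 fold changes were -0.72 and 0.25, against 0.04 and -0.01 over all genes. TALDO1, transaldolase, fell from 152 ± 5.26 to 89.1 ± 9.32 CPM (SD, n = 3; log2 fold change -0.77, adjusted p = 1.92e-07) and rose to 141 ± 5.30 CPM with iron (0.67, adjusted p = 6.31e-06). PGD, phosphogluconate dehydrogenase, went from 402 ± 18.4 to 272 ± 31.4 and 355 ± 14.1 CPM (-0.57 and 0.38). TKT, transketolase, went from 359 ± 14.9 to 164 ± 10.9 and 215 ± 10.9 CPM (-1.13 and 0.39). Whether this response to iron differs from that of the glycolysis genes was not tested.

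**Figure D3:**
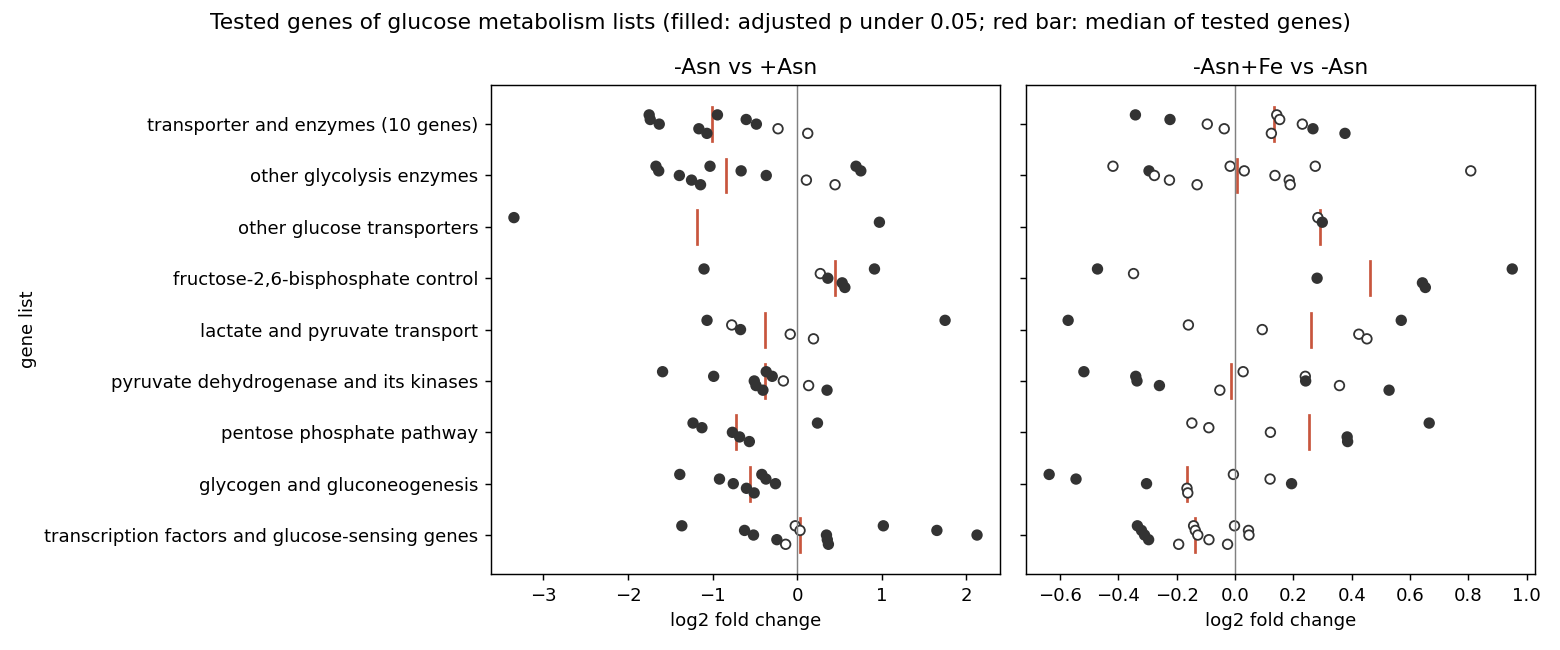
Log2 fold change of every tested gene in 9 lists of glucose metabolism, without asparagine (left) and with iron added (right; the axes differ). Filled points passed an adjusted p of 0.05, and the red bar is the median of the tested genes. Of the 6 pentose phosphate genes 5 lie left of 0 without asparagine, and their median lies at 0.25 with iron, while the median of the 10 genes lies at -1.01 and 0.13.

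Downstream of pyruvate, 7 of 10 tested genes of the pyruvate dehydrogenase complex and its regulators fell and 1 rose without asparagine, with a median log2 fold change of -0.39. Among the 7, PDK2, a kinase that inhibits the complex, lost its call in 9 of 18 other settings (with library totals alone -0.09, adjusted p = 0.521), and PDP2, a phosphatase that activates it, lost its call with library totals alone (-0.20, adjusted p = 0.0924). DLAT, the acetyltransferase subunit, fell from 235 ± 5.01 to 77.9 ± 4.15 CPM (SD, n = 3; log2 fold change -1.59, adjusted p = 5.98e-12). PDHA1, the catalytic E1 alpha subunit, rose (0.35, adjusted p = 0.000635) and fell with iron (-0.34, adjusted p = 0.00262). Of 6 tested genes for lactate and pyruvate transport, 2 fell and 1 rose, shares near or below those of all genes. BSG, a chaperone of some lactate carriers, fell from 335 ± 6.001 to 160 ± 20.6 CPM (-1.07, adjusted p = 6.52e-09). Among the lactate carriers, SLC16A7 (MCT2) fell from 29.6 ± 2.09 to 18.5 ± 6.72 CPM (-0.67, adjusted p = 0.00929), a call that ended with library totals alone (adjusted p = 0.0597) and with no low-count filter (adjusted p = 0.217). SLC16A3 (MCT4) rose from 0.332 to 1.13 CPM (1.75, adjusted p = 0.000576), and SLC16A1 (MCT1) had means of 0.682 and 0.398 CPM and no call. All 8 tested genes of glycogen metabolism and gluconeogenesis fell, with PGM2, a phosphoglucomutase, at -1.39 (adjusted p = 6.35e-11). With iron, these 3 lists had 2 higher and 4 lower, 1 higher and 1 lower, and 1 higher and 3 lower.

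Among 13 tested transcription factors and glucose-sensing genes, 6 rose and 4 fell without asparagine, and 4 fell and none rose with iron. The share lower without asparagine was near that of all genes, and the median log2 fold change was 0.03. TXNIP and ARRDC4, arrestin-family inhibitors of glucose uptake that are known targets of the glucose sensor MondoA, had the largest increases. TXNIP measured 58.8, 58.8 and 65.7 CPM in +Asn, 181, 196 and 199 CPM in -Asn and 159, 180.1 and 165 CPM in -Asn+Fe, with a log2 fold change of 1.65 in -Asn (SE 0.08, adjusted p = 1.33e-11). ARRDC4 rose from 8.97 ± 0.498 to 39.1 ± 7.38 CPM (SD, n = 3; log2 fold change 2.13, adjusted p = 4.22e-10). MLXIP, which encodes MondoA, fell (-0.62, adjusted p = 5.45e-07), its partner MLX rose (0.37, adjusted p = 0.000121), and EPAS1, the hypoxia-inducible factor HIF-2 alpha, fell from 11.5 ± 0.661 to 4.46 ± 0.375 CPM (-1.36, adjusted p = 2.03e-08). HIF1A, named with MYC after its values were seen, rose from 225 ± 15.6 to 285 ± 38.3 CPM (0.35, adjusted p = 0.00296), a call that ended against a 1.2-fold change (adjusted p = 0.121). MYC fell from 378 ± 9.60 to 264 ± 21.4 CPM (-0.52, adjusted p = 6.93e-06). With iron neither HIF1A (0.00, adjusted p = 0.992) nor MYC (-0.14, adjusted p = 0.154) was called.

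The H3K4me3 table gives the positions of peaks, not read counts, so the covered length of each region was compared. Every one of the 10 RefSeq starts lay under a region called in all 9 libraries. Averaged over libraries, the covered length at the start ran from 2220 bp at TPI1 to 4612 bp at PKM, between the 72.1 and 97.5 percentiles of the 13883 regions called in all 9 libraries. In +Asn the mark lay mostly downstream of the RefSeq start at the other 9 genes but not at GAPDH, where it reached 2586 ± 135 bp upstream and 1283 ± 147 bp downstream (SD, n = 3). This split depends on the start used. The RefSeq start of GAPDH lies 752 bp inside the gene's outer 5′ end, and the split around that end was not measured.

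Few of these widths passed a test. With the region within 1 kb of the gene's outer 5′ end, 0 of the 10 passed an adjusted p of 0.05 in limma in any of the 3 comparisons, where 16.1%, 0% and 13.6% of all regions were called in -Asn against +Asn, -Asn+Fe against -Asn and -Asn+Fe against +Asn (14.6%, 0% and 11.7% as wider). At an unadjusted p under 0.05 in limma the counts were 2, 1 and 0 of 10. Over all 13883 regions they were 4524, 1042 and 4120 in the same order, so the 10 genes did not stand out. The outer end of PGK1 in the count table lies 193509 bp from its RefSeq start, at the promoter of ATP7A, so its own start was also used, an alternative chosen after the data were seen. The median log2 width change over the 10 RefSeq starts was 0.03 without asparagine, against 0.09 over all regions.

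At ENO1 the region covered 3300, 3295 and 3343 bp in +Asn, 2893, 3025 and 3143 bp in -Asn and 3387, 2878 and 3207 bp in -Asn+Fe. Each -Asn value lay below each +Asn value, and the loss was on the gene side, where the mark reached 2237 ± 47.6 bp past the start in +Asn and 1870.3 ± 67.1 bp in -Asn (SD, n = 3). The log2 width change of -0.13 did not pass the test (SE 0.06, limma adjusted p = 0.133). With widths centred on each library's median, ENO1 (-0.22, adjusted p = 0.0116) and GAPDH (-0.16, adjusted p = 0.0331) were called narrower.

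At SLC2A1 the region covered 2325, 2339 and 2415 bp in +Asn, 2513, 2629 and 2715 bp in -Asn and 2510, 2334 and 2325 bp in -Asn+Fe, so that every -Asn library was wider than every other library. The log2 change of 0.15 in -Asn against +Asn had an adjusted p of 0.0513 in limma (SE 0.05). It was called without the first -Asn library (adjusted p = 0.032) or without the first -Asn+Fe library (adjusted p = 0.0429), which shares in the estimate of the spread. Whole libraries differed in width as well. The median over regions called in all 9 libraries ran from 1619 bp in the third +Asn library to 1840 bp in the second -Asn library. With widths centred on each library's median, SLC2A1 was not called.

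At PGK1 the peaks covered 2816, 2783 and 2415 bp in +Asn, 2613, 3022 and 3066 bp in -Asn and 3192, 3066 and 3350 bp in -Asn+Fe. In +Asn libraries 1 and 3 the peak began 94 and 67 bp upstream of the start, inside the printed promoter stretch and downstream of its motif matches. In the other 7 libraries the outer limit of the peaks lay 568 to 736 bp upstream. In the second +Asn library and every -Asn library this limit spans 2 peaks with a gap between them, so the peak over the start may not reach that far. The width in -Asn+Fe exceeded that in +Asn by 0.26 on the log2 scale (SE 0.07, limma adjusted p = 0.043), the single call at a RefSeq start. The call was lost without any 1 of the 6 libraries compared (adjusted p = 0.0532 to 0.135), without the third -Asn library (0.0528) and with the outer span in place of the covered length (0.083).

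**Figure D4:**
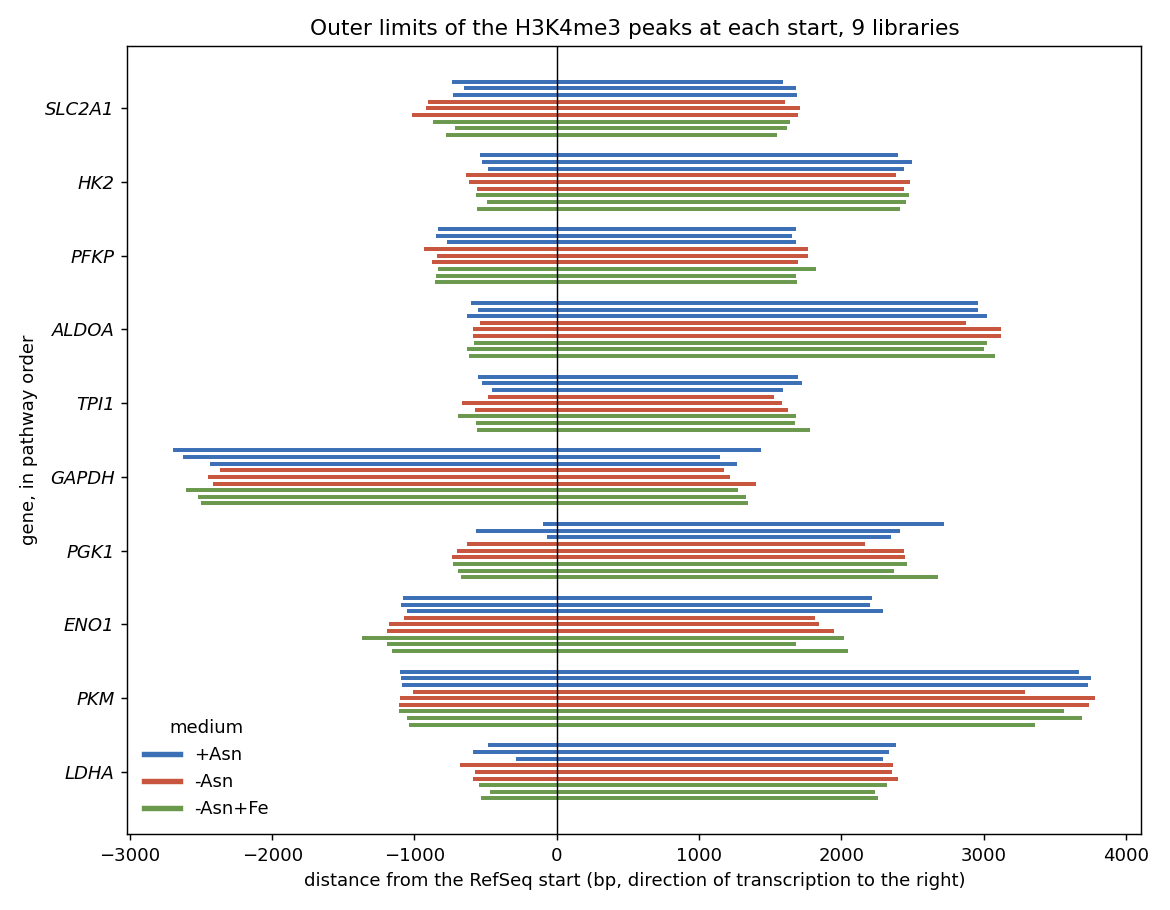
Outer limits of the H3K4me3 peaks at the RefSeq start of each gene, 1 line per library, coloured by medium, in bp from the start with transcription to the right. A line runs over any gap between peaks of the same library. The downstream limit of ENO1 is nearer the start in -Asn than in +Asn, and 2 of the 3 +Asn lines of PGK1 begin within 100 bp of the start.

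Set side by side, the RNA changes and the width changes were of different size. ENO1, PKM and LDHA had RNA log2 fold changes of -1.74, -1.75 and -1.63 in -Asn against +Asn, and their widths changed by -0.13, 0.01 and 0.10. PFKP and TPI1 had width changes of 0.08 and -0.02, and HK2 and ALDOA of 0.04 and 0.01. The largest width increase, 0.15, was at SLC2A1, whose RNA had a log2 fold change of 0.12. RNA and H3K4me3 came from separate libraries, and width says nothing of peak height.

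**Figure D5:**
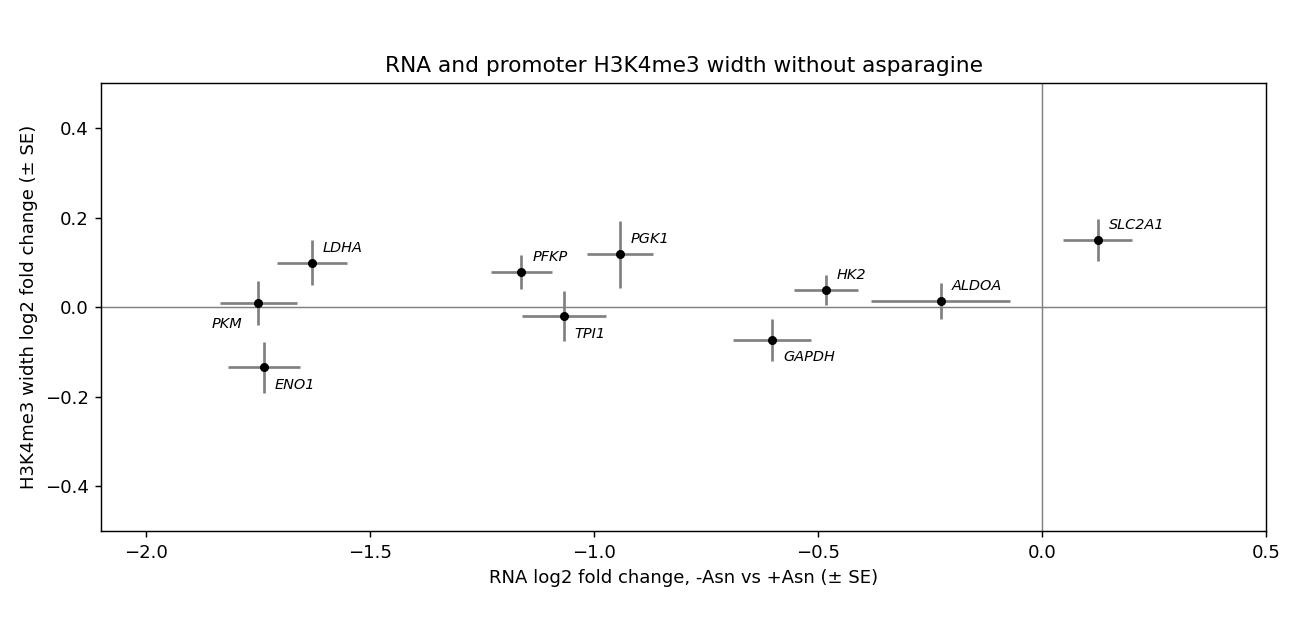
RNA log2 fold change (horizontal) against H3K4me3 width log2 fold change at the RefSeq start (vertical) in -Asn against +Asn for the 10 genes, each ± SE, on equal scales. The RNA changes run from -1.75 to 0.12, and the width changes from -0.13 to 0.15.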

How the data were processed

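RS4;11 RNA (9 libraries) and H3K4me3 (9 libraries; the 3 inputs have no values used here) were analysed from deposited tables. Per the submitters' processing notes, bcl2fastq, then STAR (2.7.2a) and Subread's featureCounts (1.6.5), were the tools for RNA, and the authors deposited raw gene counts on hg38. For ChIP the notes list MACS2 (2.2.7.1), Picard (2.18.26) and Bowtie2 (2.4.4). No source used here gives the strand, multi-mapping or peak settings. The deposited peak table holds positions of the peaks of each library, merged into 19279 regions. Its lines have 13 fields and its header 12 names; since the extra field, after the coordinates, repeats each region, the 9 library names were matched to the last 9 fields, with "untreated" taken as +Asn.

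The count test was edgeR's (version 4.0.16, R 4.3.3; TMM, filterByExpr, robust quasi-likelihood, all 9 libraries, Benjamini-Hochberg over 17939 genes). The biological coefficient of variation was 0.0871, with 6 residual degrees of freedom. Per-gene values are CPM, and ratios use counts per kb of exon. Ratios of isozymes were compared with exact permutation tests. Log2 covered widths were tested with limma 3.58.1 (trend) over 13883 regions. Both tests were tried on simulated data. Alternatives included DESeq2 1.42.0; others are named with their effects. Python 3.11.15, pandas 2.3.3, numpy 2.4.6, scipy 1.17.1 and matplotlib 3.10.9 did the rest.

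The genes and lists were chosen with earlier results of these data known. A gene of these lists is not reported here. Named were the 10 genes, 12 set isozymes and transporters, per list and comparison up to 3 called genes averaging 1 CPM or more, by size of change, and the genes with the most similar profiles. All 10 symbols matched RefSeq promoters.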

Additional observations from a re-analysis of the deposited data

How the results depend on the processing

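In -Asn against +Asn, 8 or 9 of the 10 genes were called in all 18 other settings, 8 of them always lower, and 7 were lower in all 18 settings of -Asn+Fe against +Asn. In -Asn+Fe against -Asn, 4 calls became 0 against a 1.2-fold change and 1 to 6 when 1 library was left out. Widths in -Asn against +Asn gave 0 calls, 2 when centred on the library median and 0 to 1 when 1 library was left out. Widths in -Asn+Fe against +Asn gave 0 calls, and 1 at the RefSeq start. Scaling by TMM moved the summed share of the 10 genes to 0.857% in +Asn and 0.414% in -Asn+Fe. With library totals alone, USF2 in -Asn against +Asn turned to a log2 fold change of 0.18; that setting raised the median gene by 0.21 in this comparison and by 0.25 in -Asn+Fe against +Asn, and the split of all calls in -Asn against +Asn went from 5558 higher and 5413 lower to 7343 and 3836. In -Asn+Fe against +Asn it gave 8066 higher and 3984 lower, where TMM gave 5893 and 5716. Upper-quartile factors gave 6904 and 4222, and 7672 and 4255. In -Asn+Fe against -Asn they gave 3196 higher and 2419 lower, where TMM gave 2506 and 3019.

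Same-numbered libraries did not deviate together (r of -0.0806 to 0.0721 for RNA and -0.211 to 0.0933 for widths), so replicate numbers were not taken as pairs. With the replicate number as a block, 8, 3 and 7 genes were called in the 3 RNA comparisons and 0 in each width comparison; SLC2A1 lost its call with iron (adjusted p = 0.0557). With the block, the PGK1 width call in -Asn+Fe against +Asn was lost (adjusted p = 0.0822). The lowest level of the 10 genes in any library was 18.02 CPM, for ALDOA, whose counts are uncertain because of shared exon bases. Results on peaks are limited by the lack of peak heights and input values.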
